A study of Rattus norvegicus with 72 samples.

Results

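Gene expression in the mammary gland of pregnant rats was compared between the microgravity group (label mammary_preg_microGravity, arrays FLTA to FLTD, called flight here) and its flight control (label mammary_preg_microGravityControl_flight, arrays FDSA to FDSD). These 8 arrays, 4 a group, were taken from the 72 arrays of the series by their labels alone, and every probe set of the deposited table was kept. A second control, the vivarium group (label mammary_preg_microGravityControl_vivarium, arrays VIVA to VIVD, n = 4), was in the same fit and is set beside the comparison. The groups share the species, the tissue, pregnancy, TRIzol extraction of total RNA and amplification and biotin labelling with the NuGEN Ovation kit. Strain, age, day of pregnancy, time of day at collection, the meaning of the codes FLT and FDS, and whether the letters A to D stand for separate animals are not given in the sources used here. The p-values therefore measure the spread between arrays, part of which may be technical.

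In pregnancy the mammary epithelium grows under progesterone, prolactin and placental hormones and then begins to differentiate into alveoli that make milk. Prolactin, insulin and glucocorticoids together drive this step, in which genes of milk proteins, of fatty acid synthesis and of glucose uptake are induced, and glucocorticoids also help to close the tight junctions between alveolar cells. Glucocorticoids act through a nuclear receptor that binds a palindromic DNA element in or near its target genes.

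Values are log2 signals after robust multi-array averaging (RMA), so a difference of 1 is a change of 1 doubling, and levels of different probe sets are not compared. The tissue label was borne out by its markers on all 12 arrays. Milk protein genes (7 measured) had array means of 12.60 to 12.71 in flight, 12.20 to 12.53 in flight control and 12.26 to 12.55 in vivarium, and 15 luminal epithelium markers had means of 8.24 to 8.53, 7.72 to 8.42 and 8.10 to 8.35 in the same order of groups. Several arrays also carried markers of other tissues. The 17 lymphocyte and plasma cell markers averaged 5.70, 4.81, 4.71 and 4.57 on flight arrays A to D, against 4.82, 7.87, 5.83 and 5.83 on flight control arrays A to D and 4.52 to 4.77 in vivarium. FDSB was thus the richest in these markers and the lowest in luminal markers. Markers of hepatocytes averaged 4.82 on FLTB and 3.19 to 3.64 on the other arrays, those of skin keratinocytes 6.19 on FLTC and 2.95 to 3.74 elsewhere, and those of skeletal muscle 6.66 on VIVA and 6.95 on VIVC and 3.83 to 4.17 elsewhere. In bulk tissue, fewer cells of a type and less RNA per cell cannot be told apart.

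**Figure D1:**
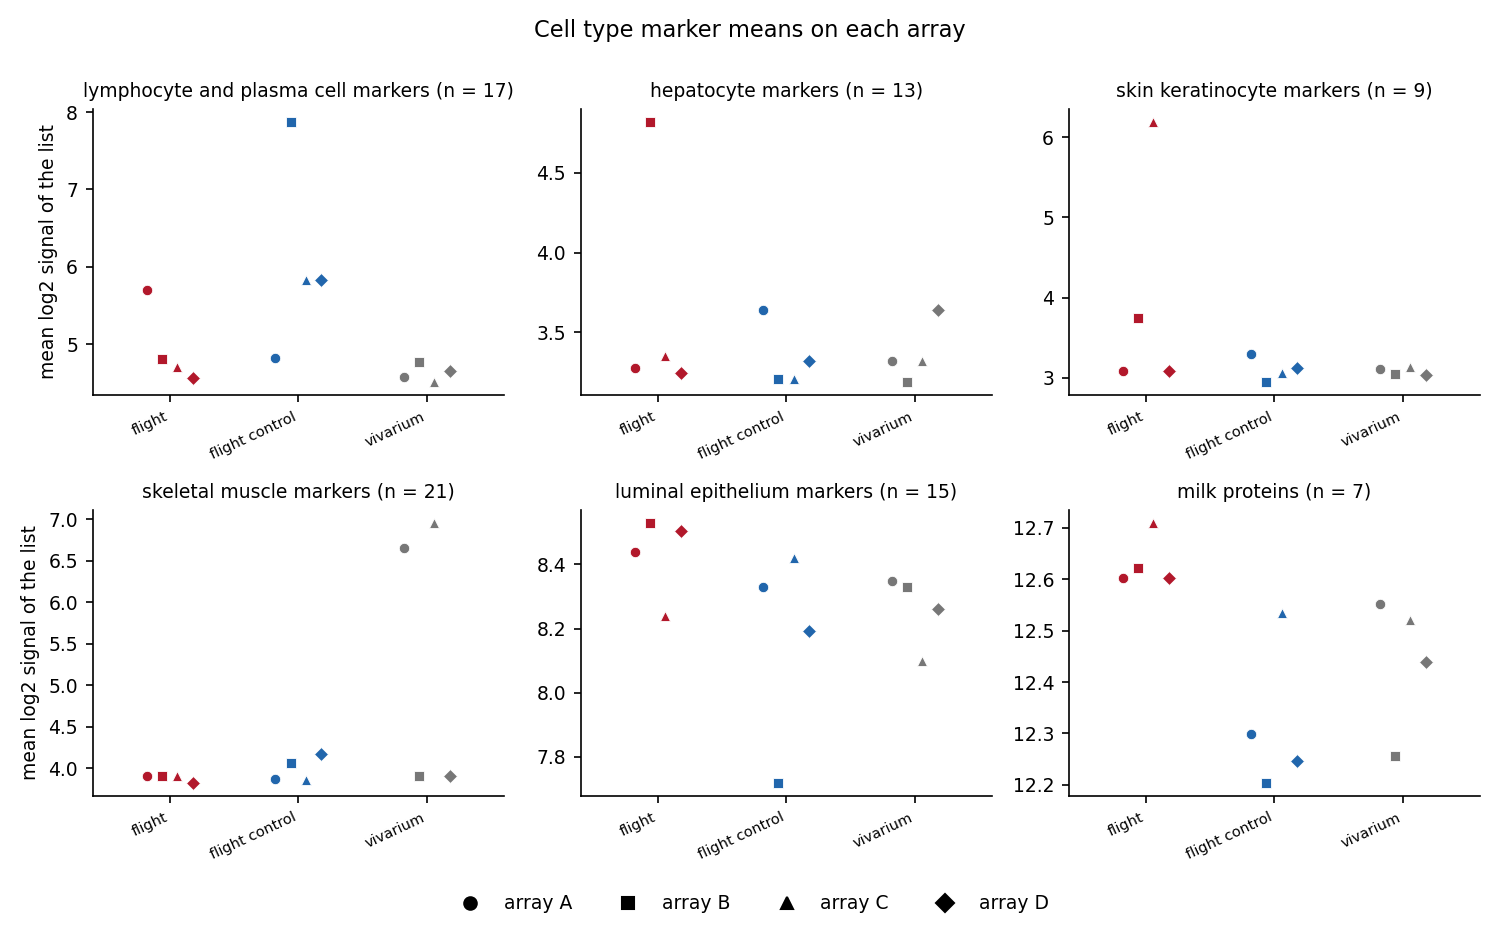
Mean log2 signal of 6 marker lists on each of the 12 arrays (vertical axis), with 1 symbol for each array letter and flight left of flight control and vivarium. Lymphocyte markers peak at 7.87 on FDSB, hepatocyte markers at 4.82 on FLTB, keratinocyte markers at 6.19 on FLTC, and muscle markers at 6.95 on VIVC.

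The flight control arrays were also the most variable. Their pairwise correlations over all probe sets ran from 0.967 to 0.987, against 0.989 to 0.992 in flight and 0.989 to 0.993 in vivarium, and the median SD over probe sets was 0.264 in flight control, 0.163 in flight and 0.160 in vivarium. The lower quartile of the signal was 3.24 on FDSA and 3.23 on FDSD and 2.97 to 3.05 on the other 10 arrays.

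Flight and flight control differed in 114 of 31042 probe sets (0.367%) at a Benjamini-Hochberg adjusted p under 0.05 in limma, of which 84 were higher in flight and 30 lower. A probe set past this threshold is called here. The 12 arrays were fitted together, with 1 estimate of the spread for each probe set over the 3 groups. The SE values below rest on that shared estimate, although flight control arrays varied more than the others. Taking for each gene its brightest probe set, 53 of 14217 genes rose (0.373%) and 20 fell (0.141%). The genes that rose differed by a median of 1.00 on the log2 scale, with folds of 1.42 to 4.31, and the genes that fell by a median of -0.82, with folds of 1.44 to 2.37. The median over all 14217 genes was -0.04, with 6105 differences above 0 and 8112 below. Of the 14217 genes, 2159 (15.2%) had an unadjusted p under 0.05. The 4 flight arrays and the 4 flight control arrays did not overlap in any of the 114 called probe sets, and in 6.43% of all probe sets. With every array centred on its own median the split was 185 higher and 23 lower, a shift of the median gene by less than 0.1.

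The number of calls depended on which arrays entered, and all 34 called genes chosen by rule for description lost the call under at least 1 alternative. The 8 arrays alone gave 23 calls, as against 114 with the vivarium arrays adding to the estimate of the spread. Leaving out FLTC gave 14 calls, FLTD 18, FLTB 40 and FLTA 60, while leaving out FDSA gave 185, FDSB 61 and FDSC 63. Without VIVA, VIVB, VIVC or VIVD it was 70, 55, 65 or 54. Without both FLTB and FLTC, the arrays with liver and skin markers, limma called 0 probe sets, with 2814 at an unadjusted p under 0.05 against 4100 with all arrays. All 114 kept their sign, as they had to, because the flight and flight control arrays do not overlap in them. With the lymphocyte marker mean of each array as a covariate 39 probe sets were called, 22 of them among the 114. Of the 34 genes, 10 kept the call with the 8 arrays alone and 11 with the lymphocyte covariate. The number that kept it was 7 without FLTC, 9 without FLTD, 15 without FLTB and 23 without FLTA. Without FDSA, FDSB, FDSC or FDSD it was 30, 21, 18 or 30, and without VIVA, VIVB, VIVC or VIVD 27, 23, 25 or 24.

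**Figure D2:**
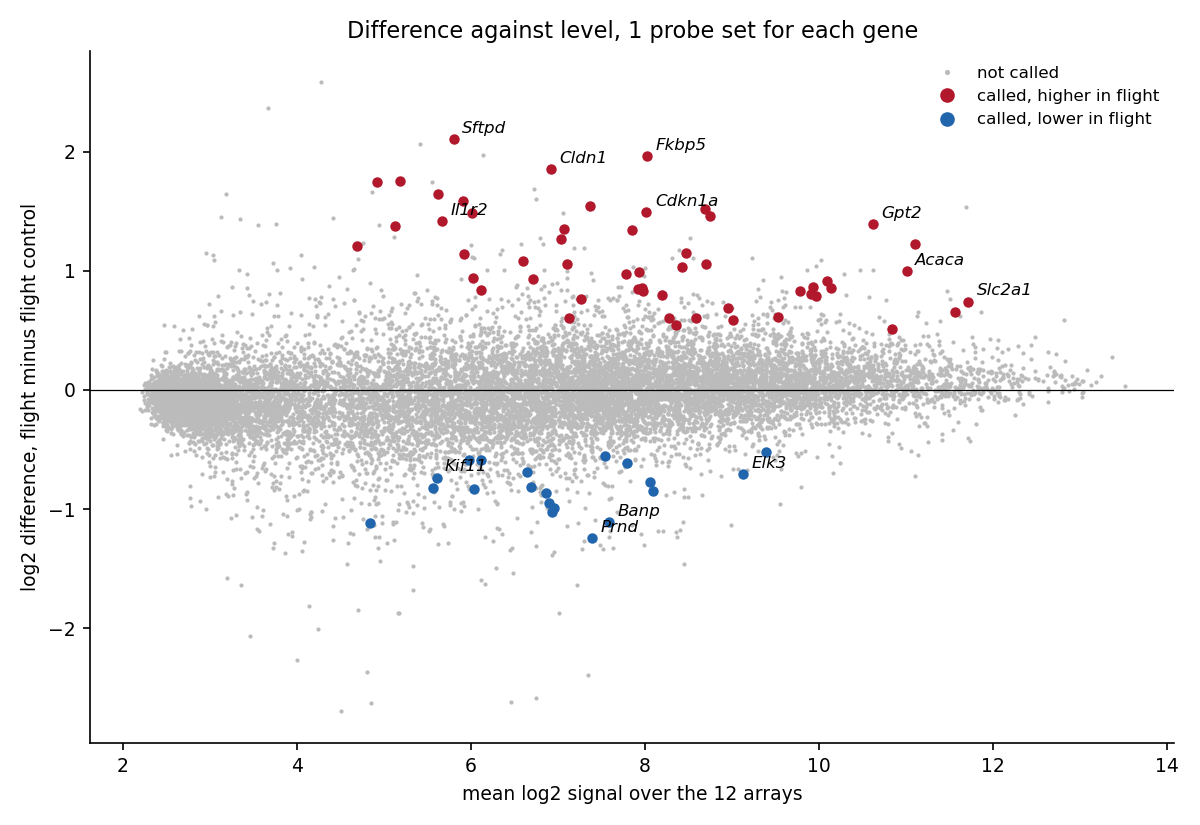
Log2 difference, flight minus flight control, against the mean log2 signal over the 12 arrays, 1 point for each of 14217 genes. Red points are the 53 genes called higher in flight and blue points the 20 called lower, and uncalled points beyond them, many at low signal, have wide spreads between arrays.

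The vivarium control gives a second view of the same flight arrays. Against it, 153 probe sets (0.493%) were called, and between flight control and vivarium 1 probe set (0.00322%), with 2851 at an unadjusted p under 0.05 in limma. Of the 53 genes that rose and the 20 that fell, 27 and 9 were also called against vivarium, and all had the same sign. Among those not called against vivarium were Fasn, Slc30a2, Slc13a4, Sult1d1, Fam180a, Prnd, Rcbtb2 and Zfp758. Their limma adjusted p against vivarium ran from 0.0556 for Fam180a to 0.259 for Rcbtb2. Both flight comparisons use the same 4 flight arrays and are not independent of each other. Values against vivarium are given below for some of the genes.

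Fkbp5, an immunophilin that binds the Hsp90 complex of the glucocorticoid receptor and is itself a receptor target, read 9.07, 9.33, 9.80 and 9.58 in flight, against 7.10, 8.17, 7.10 and 7.57 in flight control and 6.97 to 7.38 in vivarium. It was 3.89-fold higher in flight (log2 difference 1.96 ± 0.23 SE, adjusted p = 0.00479), with no overlap of arrays, and its second probe set differed by 2.08 (adjusted p = 0.00479). Cdkn1a, which encodes the cyclin-dependent kinase inhibitor p21, read 9.31, 8.89, 9.36 and 9.24 in flight, against 7.51, 8.18, 7.52 and 7.62 in flight control. FDSB was the highest flight control array for both genes. It had to lie below every flight array, because both genes were chosen among those whose groups do not overlap. The difference for Cdkn1a was 1.49 ± 0.18 (SE, adjusted p = 0.00677), and 2.05 against vivarium (adjusted p = 0.00146), while a dim second probe set of Cdkn1a, at a mean of 2.83 in flight and 2.78 in flight control, was not called.

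These were the only called members, 2 of 16 measured, of a list of glucocorticoid response genes whose median difference was 0.22, beside -0.04 over all genes. Mt2A, a metallothionein, had 13.20 to 13.31 in flight and 12.31 to 13.05 in flight control (difference 0.59, adjusted p = 0.112, and 0.74 against vivarium, adjusted p = 0.0466). Tsc22d3, the glucocorticoid-induced leucine zipper, had a difference of 0.47 (adjusted p = 0.382), Sgk1, a kinase of ion transport, 0.32 (adjusted p = 0.437), and Per1 0.04 (adjusted p = 0.963). Nr3c1, the receptor itself, averaged 8.43 ± 0.03 in flight and 8.39 ± 0.33 in flight control (SD, n = 4 each; adjusted p = 0.935). The list was therefore mixed, with large differences in Fkbp5 and Cdkn1a and small or uncalled ones in its other members.

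Sftpd, Il1r2 and Trim16 were also among the 15 largest rises. Sftpd, surfactant protein D, a secreted collectin that binds microbial sugars, read 6.92, 7.46, 7.34 and 7.04 in flight, against 5.43, 4.56, 5.29 and 5.07 in flight control and 4.82 to 5.37 in vivarium. The lowest flight array was more than 1 log2 unit above the highest control array, and the 4.31-fold rise (2.11 ± 0.19 SE, adjusted p = 0.00221) was the largest among the 53 genes. Il1r2, the decoy receptor for interleukin 1, read 6.49, 6.40, 7.20 and 6.50 in flight and 5.25, 5.13, 5.17 and 5.36 in flight control, a rise of 1.42 ± 0.17 (SE, adjusted p = 0.00589). Trim16, a ubiquitin ligase of the tripartite motif family, rose by 1.46 ± 0.16 (SE, adjusted p = 0.00479), with 9.47 to 9.79 in flight and 7.70 to 8.53 in flight control. Sftpd, Fkbp5, Cdkn1a, Trim16, Il1r2 and Gpt2, described below, kept their calls under 25 of 26 alternative settings and lost them without FLTB and FLTC, where Sftpd differed by 1.90 (adjusted p = 0.0888) and Fkbp5 by 1.84 (adjusted p = 0.117). At the other end of the 34 genes, the call held under 5 of 26 settings for Tdp1 and Zfp758, 8 for Prnd and Rgs5, 10 for Fasn and Cd93 and 11 for Sult1d1.

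**Figure D3:**
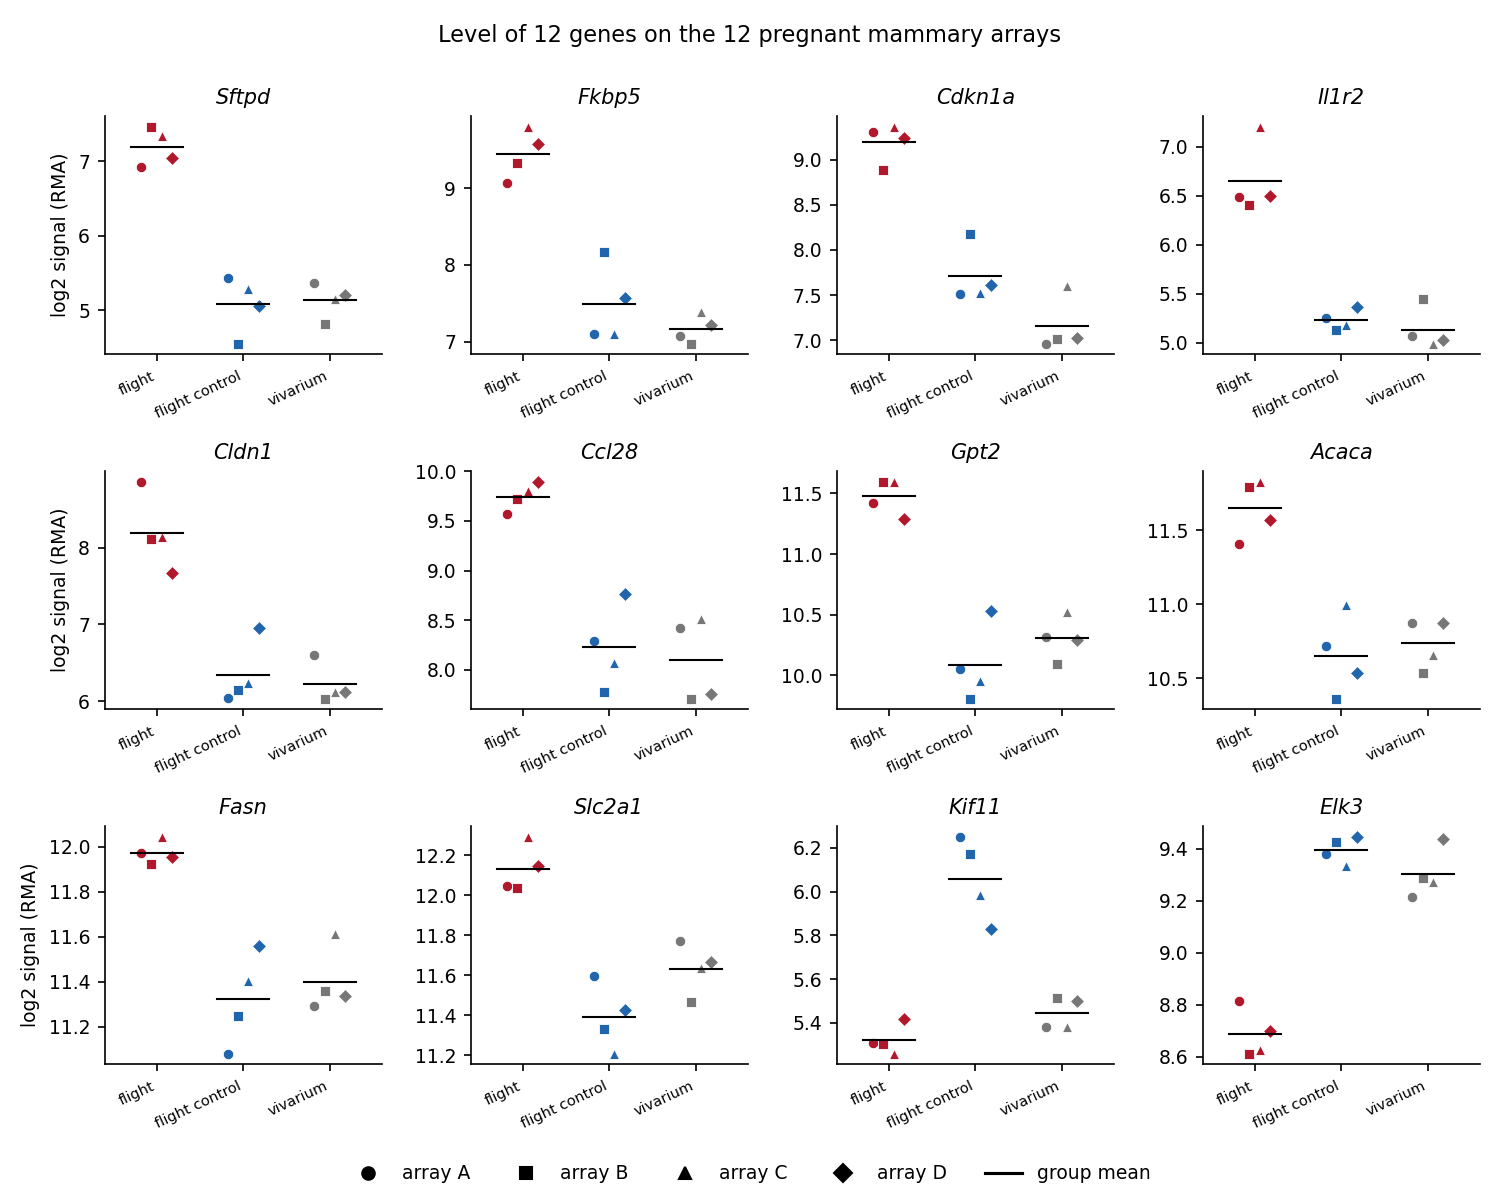
Log2 signal (vertical axis) of 12 genes on each array, with flight in red, flight control in blue, vivarium in grey, 1 symbol for each array letter and a bar at the group mean. In all 12 panels the flight arrays do not overlap the flight control arrays; for Kif11 the vivarium arrays, 5.38 to 5.51, lie near flight rather than near flight control.

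Because Fkbp5 is a known target of the glucocorticoid receptor, the RefSeq promoters (GRCr8, 250 bases before to 50 after the start) were read for its palindrome, GNACANNNTGTNC, and for a CCAAT box, a GC box (GGGCGG), an E-box (CACGTG) and a sterol response element (TCACNCCAC), on both strands. A promoter was in the table for 40 of the 53 genes that rose and 18 of the 20 genes that fell. The palindrome occurred in 2 of the 40 and 0 of the 18, in 0.393% of 11700 array genes with a promoter and in 0.459% of all 27457 genes in the table. The 2 are Fam107a, a stress-responsive gene whose product binds actin, and Map3k6, a MAP kinase kinase kinase. Both rose (1.35, adjusted p = 0.0478, and 1.14, adjusted p = 0.0226) and were chosen for description after their values were seen. They are shown with Fkbp5, the largest of the differences in the glucocorticoid list, whose window does not hold these letters. Capitals mark matches to any of the motifs, and no matches overlap. Fkbp5 is at chr20:6543506-6543805 (minus strand), Fam107a at chr15:19046331-19046630 (plus) and Map3k6 at chr5:150723995-150724294 (plus). In Fam107a the palindrome is the run GGACATGGTGTTC and in Map3k6 the run GCACAGGCTGTTC.
Fkbp5 promoter: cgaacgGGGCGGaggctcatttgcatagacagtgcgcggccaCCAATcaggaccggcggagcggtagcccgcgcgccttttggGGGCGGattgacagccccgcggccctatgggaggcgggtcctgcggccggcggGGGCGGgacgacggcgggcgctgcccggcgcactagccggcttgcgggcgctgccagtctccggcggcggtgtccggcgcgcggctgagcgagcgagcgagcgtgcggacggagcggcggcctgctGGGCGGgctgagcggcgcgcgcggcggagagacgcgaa
Fam107a promoter: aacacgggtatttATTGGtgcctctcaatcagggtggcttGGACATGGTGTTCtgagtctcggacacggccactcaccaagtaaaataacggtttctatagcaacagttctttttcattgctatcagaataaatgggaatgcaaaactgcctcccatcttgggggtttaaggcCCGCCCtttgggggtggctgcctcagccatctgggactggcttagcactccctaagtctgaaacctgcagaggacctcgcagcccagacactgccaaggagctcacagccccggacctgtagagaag
Map3k6 promoter: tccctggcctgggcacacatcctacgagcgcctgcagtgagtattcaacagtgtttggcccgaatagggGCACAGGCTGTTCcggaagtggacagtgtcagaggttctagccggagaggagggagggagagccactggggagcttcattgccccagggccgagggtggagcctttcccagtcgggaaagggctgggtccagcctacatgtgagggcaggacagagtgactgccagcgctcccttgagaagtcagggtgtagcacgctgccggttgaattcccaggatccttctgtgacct
A match describes letters only, and binding was not measured.

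Fatty acid synthesis was the list with the most calls. Of 19 genes measured, 3 rose and 0 fell, all 3 of them steps from citrate to palmitate. Of the 19 differences 18 were above 0 (median 0.30), beside 6105 of all 14217 genes. Acaca, acetyl-CoA carboxylase, which makes the malonyl-CoA used for chain growth, read 11.40, 11.79, 11.83 and 11.57 in flight, against 10.71, 10.36, 10.99 and 10.54 in flight control and 10.54 to 10.87 in vivarium (1.00 ± 0.15 SE, 1.99-fold, adjusted p = 0.0201). Slc25a1, which exports citrate from mitochondria, read 7.25, 7.37, 7.74 and 7.28 in flight and 6.55, 6.06, 6.56 and 6.73 in flight control (0.93 ± 0.16 SE, adjusted p = 0.0334). Fasn, fatty acid synthase, read 11.92 to 12.05 in flight, 11.08 to 11.56 in flight control and 11.29 to 11.61 in vivarium. Its brightest probe set rose by 0.65 ± 0.12 (SE, adjusted p = 0.0404) and the other by 0.99 (adjusted p = 0.0117). Flight and flight control arrays did not overlap for any of the 3 genes.

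The neighbouring enzymes lay in the same direction without passing the test. Acly, which splits citrate to acetyl-CoA, had 12.78 to 12.96 in flight and 12.37 to 12.76 in flight control (0.30, adjusted p = 0.255), and the desaturase gene Fads2 had a difference of 0.72 (adjusted p = 0.161). Srebf1, the transcription factor gene of lipogenesis, had a difference of 0.29 (adjusted p = 0.665). Of 17 cholesterol synthesis genes limma called 0, with 3 at an unadjusted p under 0.05, all lower, and a median of -0.04. The calls in fatty acid synthesis fell to 0 with the 8 arrays alone, without FLTB, FLTC or FLTD, without FLTB and FLTC together, without VIVA and VIVC together and with the lymphocyte covariate, and stood at 1 without FLTA, FDSB, FDSC or VIVB. Without FLTB and FLTC the list median was 0.25.

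Genes that supply and assemble milk fat had a list median of 0.41, with 0 of 14 called by limma and 9 at an unadjusted p under 0.05, 8 of them higher, where 15.2% of all genes had such a p. Gpat4, which starts glycerolipid assembly, had 9.04 to 9.46 in flight, 8.07 to 8.75 in flight control and 8.16 to 8.44 in vivarium (0.75, adjusted p = 0.0703, and 0.99 against vivarium, adjusted p = 0.0158). Cidea, a lipid droplet protein, had a difference of 1.19 (adjusted p = 0.183). Plin2, a coat protein of lipid droplets, had a brightest probe set near the top of the scale (12.82 to 12.95 in flight, 12.66 to 12.89 in flight control, adjusted p = 0.722), whereas a dimmer one, at 11.61 to 11.80 and 11.07 to 11.24, was called (0.53, adjusted p = 0.0342), so the probe sets disagree. In vivarium this dimmer probe set read 10.85 to 10.99.

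Glucose supply showed 1 call in 15 genes. Slc2a1, the glucose transporter GLUT1, read 12.05, 12.04, 12.29 and 12.15 in flight, against 11.59, 11.33, 11.21 and 11.43 in flight control, with vivarium between them at 11.46 to 11.77. It rose by 0.74 ± 0.11 (SE, 1.67-fold, adjusted p = 0.0226), and the difference from vivarium was 0.50 (adjusted p = 0.0907). The list median was -0.03, near that of all genes, and the lactose synthase genes Lalba (0.44, adjusted p = 0.53) and B4galt1 (-0.03) were not called. The promoters of Slc25a1 (chr11:96559804-96560103, plus strand) and Slc2a1 (chr5:138002272-138002571, plus strand) are shown because both genes carry carbon toward fat or lactose and both rose. Both windows hold CCAAT and GC boxes, in capitals, and neither holds the palindrome, the E-box or the sterol response element.
Slc25a1 promoter: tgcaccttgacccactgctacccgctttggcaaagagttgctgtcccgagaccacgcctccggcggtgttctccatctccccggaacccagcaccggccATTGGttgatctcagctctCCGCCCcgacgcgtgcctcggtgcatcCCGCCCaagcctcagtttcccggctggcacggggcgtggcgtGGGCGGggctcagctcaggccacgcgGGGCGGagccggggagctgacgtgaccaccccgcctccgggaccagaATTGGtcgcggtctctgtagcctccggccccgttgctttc
Slc2a1 promoter: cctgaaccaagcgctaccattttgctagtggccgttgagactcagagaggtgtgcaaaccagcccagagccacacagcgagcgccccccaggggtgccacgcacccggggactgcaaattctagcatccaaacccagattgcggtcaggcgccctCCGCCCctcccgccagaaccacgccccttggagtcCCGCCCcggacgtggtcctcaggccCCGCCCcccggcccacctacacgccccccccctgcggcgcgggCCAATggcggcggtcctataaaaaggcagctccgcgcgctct
A CCAAT box occurred in 38.6% and a GC box in 58.6% of promoters of array genes, against 42.5% and 65.0% of promoters of the 40 genes that rose. Among the 18 that fell the shares were 27.8% and 66.7%. The E-box was in 5.0% of the 40 and 9.38% of array genes, and the sterol response element in 5.0% and 1.2%.

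Among junction genes Cldn1, a claudin that seals tight junctions, was the only call in 15. It read 8.86, 8.11, 8.14 and 7.67 in flight, against 6.04, 6.14, 6.23 and 6.96 in flight control and 6.03 to 6.60 in vivarium (1.85 ± 0.25 SE, 3.60-fold, adjusted p = 0.0113). The 2 arrays without raised liver or skin markers, FLTA and FLTD, were the highest and the lowest of the flight arrays. Whether liver or skin tissue shaped the Cldn1 values was not tested. Cldn1 was not called with the 8 arrays alone, without FLTC, or without FLTB and FLTC together. A second probe set rose by 2.12 (adjusted p = 0.00931), and a dim one, at means of 3.41 in flight and 3.30 in flight control, was not called. Cldn4 (0.67, adjusted p = 0.135), Cldn7 (0.51), Cldn3 (0.21), and Tjp1 (-0.08) did not pass.

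Ccl28, a chemokine that draws plasma cells to mucosa and, in mice, to the lactating gland, read 9.57, 9.72, 9.81 and 9.89 in flight, against 8.30, 7.78, 8.07 and 8.76 in flight control and 7.71 to 8.51 in vivarium (1.52 ± 0.22 SE, adjusted p = 0.0171). Of the 17 lymphocyte and plasma cell markers, 1 had a difference above 0 against flight control and 13 against vivarium (medians -1.21 and 0.15). Slc30a2, which loads zinc into secretory vesicles, was called at 1.40 (adjusted p = 0.0251), with 7.23 to 8.07 in flight, 6.09 to 6.74 in flight control and 6.39 to 7.18 in vivarium. It was chosen for description after its value was seen, and its list mate Slc30a4 was not called (-0.15). Aqp9, a channel for water and glycerol (1.64, adjusted p = 0.0298), and Slc13a4, a sulfate transporter (1.49, adjusted p = 0.0288), rose, as did the glycan-branching enzyme gene Mgat4a (1.59, adjusted p = 0.0125) and the sulfotransferase gene Sult1d1 (1.38, adjusted p = 0.0362). Flight arrays read 6.14 to 7.24 for Aqp9 and flight control arrays 4.35 to 5.59.

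Gpt2, mitochondrial alanine aminotransferase, read 11.43, 11.60, 11.59 and 11.29 in flight, against 10.05, 9.81, 9.95 and 10.53 in flight control and 10.09 to 10.52 in vivarium (1.39 ± 0.16 SE, 2.63-fold, adjusted p = 0.00479). Arg2, mitochondrial arginase, was called at 0.80 (adjusted p = 0.0125), with 10.17 to 10.38 in flight and 9.24 to 9.65 in flight control, but vivarium arrays at 9.87 to 10.06 lay nearer to flight (0.33, adjusted p = 0.286). Arg2 was chosen after its values were seen. Bbox1, the last enzyme of carnitine synthesis, rose by 1.75 ± 0.29 (SE, adjusted p = 0.0276) and Scin, an actin-severing protein, by 1.54 ± 0.28 (SE, adjusted p = 0.0389). For Scin the vivarium arrays, at 7.06 to 7.62, overlapped the flight control arrays, at 5.64 to 7.15, and the difference from vivarium was 0.77 (adjusted p = 0.336). Fam180a, a gene with no role given here, rose by 1.76 ± 0.27 (SE, adjusted p = 0.0212), and its array FLTA, at 5.16, stood apart from 6.47 to 6.65 on the other flight arrays.

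Kif11, the kinesin that builds the mitotic spindle, was the single call among 22 mitosis genes. It read 5.31, 5.30, 5.26 and 5.42 in flight, against 6.25, 6.17, 5.98 and 5.83 in flight control (-0.74 ± 0.11 SE, adjusted p = 0.0171). Vivarium arrays, at 5.38 to 5.51, lay near flight, with a difference of -0.12 (adjusted p = 0.867). The mitosis list as a whole had 20 of 22 differences below 0 and a median of -0.35, where the median between flight and vivarium was 0.06. Birc5 (-0.56, adjusted p = 0.115), Cdc20 (-0.53, adjusted p = 0.133), Ube2c (-0.45, adjusted p = 0.127) and Mki67 (-0.44, adjusted p = 0.195) did not pass. The list's array means were 6.23 to 6.41 in flight, 6.43 to 6.79 in flight control and 6.05 to 6.32 in vivarium. FDSB, richest in lymphocyte markers, had the highest mitosis mean, and FDSA, at 4.82 for lymphocyte markers, had a mitosis mean of 6.55. Without FDSB the list median was -0.32. Whether lymphocyte content shaped the mitosis values was not tested. Of 17 genes of S phase limma called 0 (median -0.30). An unadjusted p under 0.05 in limma was found for 5 of them (29.4%) and 9 mitosis genes (40.9%), all lower. The share of all genes was 15.2%. With the lymphocyte covariate the medians were -0.31 for mitosis and -0.11 for S phase. Kif11 was not called without FLTB, FLTC or FLTD, without VIVA and VIVC together, with the 8 arrays alone or with the lymphocyte covariate (-0.73, adjusted p = 0.0628).

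Elk3, an ETS factor active in vessel growth, read 8.82, 8.61, 8.63 and 8.70 in flight, against 9.38, 9.42, 9.33 and 9.45 in flight control and 9.21 to 9.44 in vivarium (-0.71 ± 0.09 SE, adjusted p = 0.0104, and -0.61 against vivarium, adjusted p = 0.0148). Nrp2, a receptor for semaphorins and vascular growth factors (-0.95, adjusted p = 0.0362), Rgs5, a marker of pericytes (-0.82, adjusted p = 0.0453), and Cd93, of endothelium and myeloid cells (-0.77, adjusted p = 0.0362), also fell. Against vivarium the difference was -1.06 for Nrp2 (adjusted p = 0.0157), -0.50 for Rgs5 (adjusted p = 0.224) and -0.42 for Cd93 (adjusted p = 0.264). The separate list of 14 endothelium markers had 0 calls in limma, 1 gene at an unadjusted p under 0.05 and a median of -0.24, with array means of 7.34 to 7.55 in flight, 7.48 to 7.63 in flight control and 7.43 to 7.72 in vivarium. Fgr, a Src-family kinase of myeloid and B cells, read 4.60, 4.37, 4.20 and 4.04 in flight, against 5.31, 5.77, 5.33 and 5.26 in flight control (-1.11 ± 0.16 SE, adjusted p = 0.0159), and Vsir, an immune checkpoint ligand, fell by 0.83 on the log2 scale (adjusted p = 0.0276). Against vivarium neither was called, with -0.52 for Fgr (adjusted p = 0.245) and -0.50 for Vsir (adjusted p = 0.161). FDSB was the highest array for Fgr, for Vsir and for lymphocyte markers. FDSA, with lymphocyte markers at 4.82, read 5.31 for Fgr and 6.55 for Vsir. Both values had to lie above every flight array, because these genes were chosen among those whose groups do not overlap. With the lymphocyte covariate Elk3, Nrp2, Rgs5, Cd93, Fgr and Vsir were not called. Whether lymphocyte content shaped these falls was not tested.

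The largest fall was that of Prnd, which encodes the prion-like protein doppel. It read 7.26, 6.88, 6.50 and 5.95 in flight, against 8.14, 7.81, 7.95 and 7.66 in flight control and 7.39 to 7.90 in vivarium (-1.24 ± 0.23 SE, adjusted p = 0.0471). Banp, a nuclear DNA-binding protein, fell with less spread, with 6.63 to 7.18 in flight, 7.90 to 8.31 in flight control and 7.49 to 8.08 in vivarium (-1.11 ± 0.16 SE, adjusted p = 0.0125). Tube1, epsilon-tubulin of the centriole, read 6.03 to 6.61 in flight and 7.27 to 7.41 in flight control (-0.99, adjusted p = 0.0104, and -0.84 against vivarium, adjusted p = 0.0157), and Tctn3, a protein of the ciliary transition zone, fell by 0.87 on the log2 scale (adjusted p = 0.0226). Tdp1, a DNA end repair enzyme (-0.82, adjusted p = 0.0499), Zfp758 (-0.69, adjusted p = 0.049), Apol11a (-1.03, adjusted p = 0.0226) and Rcbtb2 (-0.85, adjusted p = 0.0263) completed the 15. For Rcbtb2 a second probe set of similar brightness differed by -0.41 and was not called (adjusted p = 0.261).

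Clock genes, which run the daily transcription cycle, are read here with the time of collection unknown. On the brightest probe sets 0 of 19 were called between flight and flight control, with a median of 0.26. In limma 7 had an unadjusted p under 0.05 (36.8%, beside 15.2% of all genes). Nfil3, a repressor of clock output, came nearest, with 8.62, 8.90, 9.14 and 8.98 in flight, against 8.07, 7.74, 7.75 and 7.95 in flight control and 6.27 to 7.55 in vivarium (1.03, adjusted p = 0.0825). Per2, a core repressor, read 9.60, 9.78, 9.57 and 9.19 in flight and 7.97, 8.52, 8.01 and 9.19 in flight control (1.11, adjusted p = 0.131), and its dimmer probe set, at 5.52 to 6.03 and 4.74 to 5.03, was called (0.84, adjusted p = 0.0334). In vivarium the brighter probe set of Per2 read 9.13 to 10.42, and flight minus vivarium was -0.20 (limma adjusted p = 0.955). The dimmer one read 4.96 to 5.45 in vivarium, and flight minus vivarium was 0.59 (limma adjusted p = 0.119). Bmal1 (0.63, adjusted p = 0.244) and Clock (0.47, adjusted p = 0.15), the activator pair, Nr1d1 (-0.10, adjusted p = 0.923) and Per1 were not called. Dbp, an output factor, had 6.68 to 6.99 in flight, 6.45 to 8.32 in flight control and 8.53 to 8.98 in vivarium. Its difference was -0.42 from flight control (adjusted p = 0.574) and -1.92 from vivarium (adjusted p = 0.0157), and for Bmal1 the difference from vivarium was 1.46 (adjusted p = 0.0139). Between flight control and vivarium, Tef differed by -1.69 (adjusted p = 0.097) and Hlf by -1.09 (adjusted p = 0.117), so flight control lay nearer to flight than to vivarium for these output factors without passing the test. With the time of collection unknown, clock phase and group cannot be told apart.

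**Figure D4:**
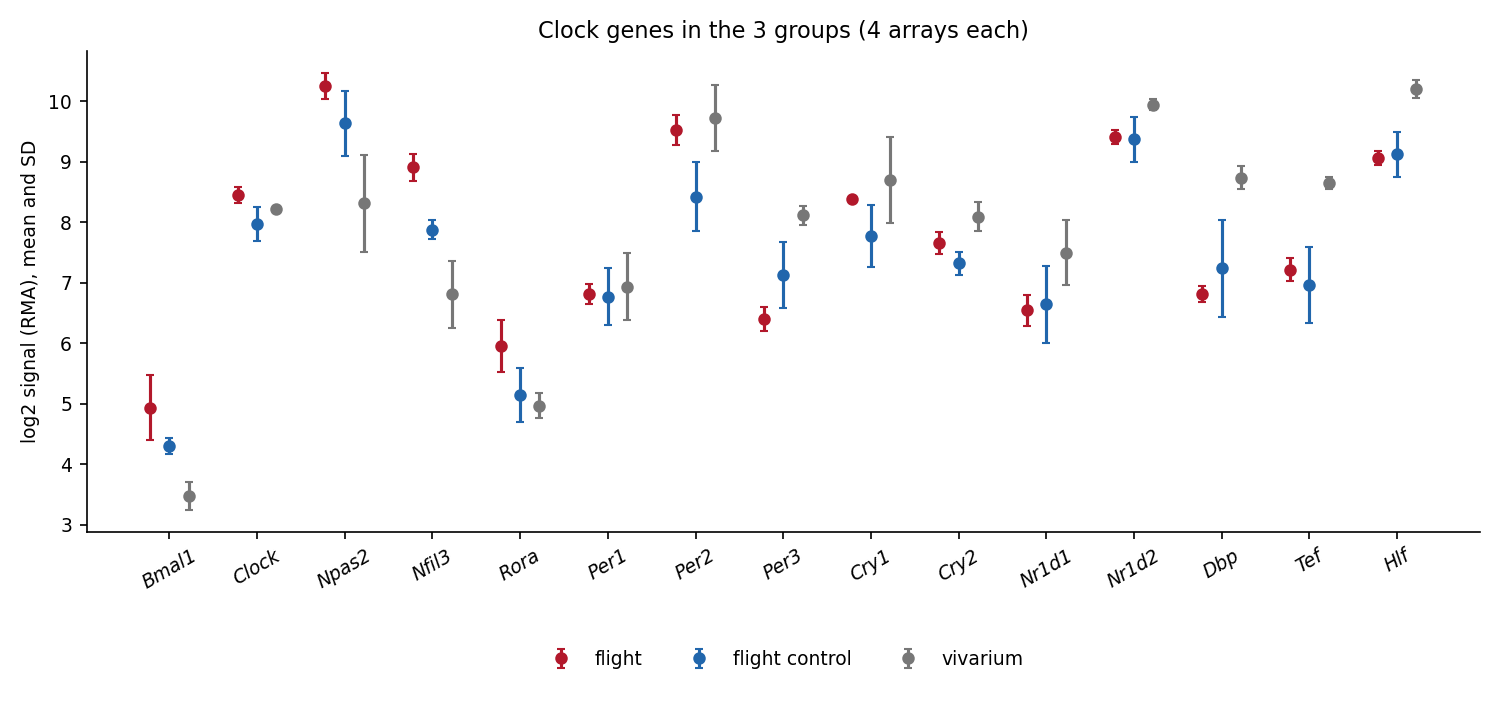
Mean log2 signal and SD (error bars, n = 4) of 15 clock genes in flight, flight control and vivarium. Flight and flight control lie close for Dbp, Tef, Hlf and Nr1d1, with vivarium higher, and Nfil3 is ordered flight, flight control, vivarium from high to low.

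The 7 milk protein genes and 15 genes of alveolar differentiation and prolactin signalling held 0 calls in limma. At an unadjusted p under 0.05 they held 2 and 4 (28.6% and 26.7%, beside 15.2% of all genes). Csn2, beta-casein, had 13.21 to 13.33 in flight and 12.79 to 13.31 in flight control (0.12 ± 0.12 SE, adjusted p = 0.71), near the top of the array's range. Wap, whey acidic protein, had 13.44 to 13.59 and 12.95 to 13.41 (0.27 ± 0.12 SE, adjusted p = 0.339). Lalba, alpha-lactalbumin, had 12.56 to 12.84 and 11.35 to 12.91, with FDSD the lowest. All 7 milk protein differences were above 0 (median 0.17), Lpo, lactoperoxidase, having the largest (1.11, adjusted p = 0.157). For flight minus vivarium 4 of the 7 were above 0 (median 0.03), and for flight control minus vivarium 0 of the 7 (median -0.14). Of the regulators, Elf5, the alveolar ETS factor, had 10.53 to 10.82 in flight and 9.97 to 10.51 in flight control (0.40 ± 0.12 SE, adjusted p = 0.194), Stat5a a difference of 0.40 (adjusted p = 0.117) and Prlr, the prolactin receptor, -0.21 (adjusted p = 0.657). Against vivarium the difference was 0.09 for Elf5 (limma adjusted p = 0.942) and 0.16 for Stat5a (limma adjusted p = 0.745). FDSB, the array with the lowest luminal markers, was the lowest for Elf5.

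Lists tied to mechanical load held 0 calls in limma. Scin, which severs actin, and Fam107a, whose product binds it, were called but are in none of these lists. At an unadjusted p under 0.05 the lists held 3 integrin, 1 YAP and SRF, 3 cytoskeleton, 3 matrix and 2 basement membrane genes. These shares were near or below the 15.2% of all genes. Integrin and focal adhesion genes (0 of 23, median -0.02), YAP and SRF targets (0 of 14), cytoskeleton (0 of 20, median -0.14), fibroblast and matrix genes (0 of 22, median -0.01) and basement membrane (0 of 15, median 0.06) had medians close to that of all genes, -0.04. Within them, Tead1, a partner of YAP, had 9.88 to 10.21 in flight and 9.04 to 9.70 in flight control (0.69, adjusted p = 0.0644), and Lama1, a laminin chain, a difference of 0.87 (adjusted p = 0.0877). Heat shock genes (0 of 19, median -0.13), the unfolded protein response (0 of 21, median -0.18), oxidative phosphorylation (0 of 23, median 0.07) and ribosomal proteins (0 of 14, median 0.07) had 0 too, with 1, 3, 0 and 0 at an unadjusted p under 0.05 in limma. In the p53 list the only call of 14 was Cdkn1a, which the glucocorticoid list also holds. Without FDSB, or with the lymphocyte covariate, the unfolded protein median was -0.04 or 0.06, and that of heat shock genes 0.01 or -0.02.

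Immune lists had medians below 0 against flight control, with 0 called in limma in any of them. At an unadjusted p under 0.05, the share was 46.2% for antigen presentation, 26.1% for interferon response, 37.5% for macrophage markers and 52.9% for lymphocyte and plasma cell markers, beside 15.2% of all genes. Antigen presentation (13 genes) had a median of -0.46, interferon response (23) -0.26, macrophage markers (16) -0.27 and lymphocyte and plasma cell markers (17) -1.21. Against vivarium the medians were -0.04, -0.17, -0.07 and 0.15 in the same order. Pou2af1, a B cell coactivator, read 6.75, 3.70, 4.23 and 3.10 in flight, against 3.71, 10.24, 7.01 and 7.32 in flight control and 2.63 to 3.46 in vivarium (-2.63, adjusted p = 0.319). The groups overlapped, with FLTA high among flight arrays and FDSA low among flight controls. Without FDSB the medians were -0.25 for antigen presentation, -0.08 for interferon response, -0.12 for macrophage markers and -0.55 for lymphocyte markers.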

How the data were processed

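Total RNA of pregnant rat mammary gland was hybridised to expression arrays. The deposited table holds log2 values made by the authors with RMA, per the submitters' processing notes; the version, and which arrays were processed together, are not given in the sources used here. Array medians were 4.87 to 5.02 on these 12 arrays and 4.32 to 4.56 on the other 60, whose levels were therefore not compared. Groups came from the labels. The values were used as deposited and fitted with limma 3.58.1 (R 4.3.3, lmFit and eBayes, 1 mean for each of the 3 groups), two-sided, with Benjamini-Hochberg adjustment over all 31042 probe sets. Of these, 20826 had 1 gene symbol, 436 several and 9780 none, and a gene was read by its brightest single-symbol probe set. The 46 gene lists hold 884 symbols, 775 with a probe set. The members and lists were chosen with earlier results of these data known. Genes named by rule were up to 15 in each direction with the largest called, non-overlapping differences, up to 4 called members of a described list or, where none was called, 2 with the smallest p, and a set of milk and clock genes; others named were chosen after their values were seen. The fit was tested on simulated data. Alternatives covered array weights, variance moderation, scaling, dim probe sets, the groups in the fit, a replicate block and left-out arrays. Same-letter flight and flight control arrays did not deviate together (correlations of -0.14, -0.13, 0.08 and -0.03 for A to D). The number of arrays limits the precision. Figures and promoters used Python 3.11.15.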

Additional observations from a re-analysis of the deposited data

Results flagged for a closer look

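In 11 of 108 groups of 4 arrays examined (10.2%, where chance flags about 5%), 1 array stood far from the other 3. Among flight arrays, FLTA read 5.16 for Fam180a against 6.47 to 6.65 on the others, and 5.81 for Rgs5 against 6.35 to 6.43. FLTC read 7.20 for Il1r2 against 6.40 to 6.50. Hepatocyte markers averaged 4.82 on FLTB against 3.25 to 3.35, and skeletal muscle markers 3.83 on FLTD against 3.91 on each of the others. Among flight control arrays, FDSB read 8.18 for Cdkn1a against 7.51 to 7.62, and 5.77 for Fgr against 5.26 to 5.33. Among vivarium arrays, VIVA read 6.60 for Cldn1 against 6.03 to 6.12. VIVC read 7.60 for Cdkn1a against 6.96 to 7.03, 8.64 for Trim16 against 8.31 to 8.35, and 8.05 for Rcbtb2 against 8.11 to 8.12.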

How the results depend on the processing

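Between flight and flight control, 114 probe sets were called. The count was 208 with arrays centred on their medians, 204 among probe sets above the median level, 23 with only the 2 groups, 33 without VIVA and VIVC, and 317 at an adjusted p under 0.1. Settings added after seeing the data gave 278 without FDSA and FDSD, 4023 without FDSB, FDSC and FDSD (1 flight control array, assumed to vary like the others), 0 without FLTB and FLTC, and 39 with the lymphocyte covariate. Leaving out 1 array gave 14 to 185. Between flight and vivarium (153), the count was 749 with array weights, 414 with only the 2 groups, 11 without VIVA and VIVC, 307 at 0.1, 310 without FDSA and FDSD, 414 without FDSB, FDSC and FDSD, 2 without FLTB and FLTC, 293 with the covariate, and 38 to 244 with 1 array left out. Between flight control and vivarium (1), it was 2 with array weights, 5 with centring, 4 at 0.1, 14 without FDSA and FDSD, and 3871 without FDSB, FDSC and FDSD. It was 0 in limma with quantile normalization (2483 at an unadjusted p under 0.05), only the 2 groups (2061), without VIVA and VIVC (1659), without FLTB and FLTC (2432) and with the covariate (5324), and 0 to 8 with 1 array left out. With the letter as a replicate block the counts were 43, 91 and 0 (2593 at an unadjusted p under 0.05 for the last), and 17 of the 34 genes, Acaca, Slc25a1, Fasn and Kif11 among them, lost the call between flight and flight control; the letters are only a number here, as the same letters did not deviate together. The cause of these shifts was not tested. None of the 34 called genes named by rule changed direction under an alternative that gave a value. Leaving out arrays could not change it, because flight and flight control arrays do not overlap for these genes.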

Other observations

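RT1-Bb, an MHC class II beta chain gene, and Chac1, a glutathione-degrading enzyme of the stress response, were picked after their values were seen. RT1-Bb read 2.76, 8.39, 7.84 and 8.22 in flight, against 9.05, 10.55, 8.67 and 8.50 in flight control and 2.69, 8.38, 9.13 and 3.99 in vivarium (-2.39, limma adjusted p = 0.515). FLTA, VIVA and VIVD were near the bottom of the scale. Chac1 read 4.44, 4.44, 5.29 and 3.87 in flight, against 4.62, 9.55, 5.43 and 5.94 in flight control (-1.87, limma adjusted p = 0.328), with FDSB the highest.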
